A study of Mus musculus with 72 samples.

Results

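Replication-dependent histone genes supply the packaging proteins of newly made chromatin. They were taken here as every gene of the count files whose symbol starts with Hist1h or Hist2h, which gave 55 of 22556 genes. Of these, 49 lay in the Hist1 cluster (mm10, chromosome 13, from 21715712 to 23934913) and 6 in the Hist2 cluster (chromosome 3, from 96219915 to 96270192). By histone type there were 6 H1, 13 H2a, 15 H2b, 10 H3 and 11 H4 genes. Chromatin-associated RNA (ChrRNA-seq, RNA that is still bound to chromatin and largely newly made) was sequenced from F1 hybrid 129S by Castaneus XX mouse embryonic stem cells (mESCs) that were differentiated into neural precursor cells (NPCs) in N2B27 medium while doxycycline switched on Xist. In iXist-ChrX_Dom the inducible promoter sits on the 129S X chromosome and in iXist-ChrX_Cast on the Cast X chromosome. Wild-type (WT) cells of each line were set against SmcHD1 knockout (KO) cells made by CRISPR, clone A3 of iXist-ChrX_Dom and clones D5 and G6 of iXist-ChrX_Cast, so each genotype of a line rests on 1 or 2 clones. SmcHD1 is a chromosomal protein that takes part in X inactivation. Replicates numbered 12 for Dom WT, 14 for A3, 14 for Cast WT, 13 for D5 and 12 for G6. They covered days 2, 3, 5 and 7 (2 or 3 replicates a clone and day) and days 15, 21 and 35, with day 52 in the Dom line only (1 library a clone and day). ES cells before differentiation were present for the KO clones only, 2 replicates of A3, 2 of D5 and 1 of G6.

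Replication-dependent histone genes are switched on as cells enter S phase, when new DNA has to be wrapped, and their transcripts fall when DNA synthesis stops. H2A, H2B, H3 and H4 form the core of the nucleosome, and H1 is the linker histone that binds where DNA enters and leaves it. Most of these genes lack introns and their mRNAs end in a conserved stem-loop instead of a poly(A) tail, which the stem-loop binding protein Slbp holds. NPAT, working at histone locus bodies, drives their transcription downstream of cyclin E and CDK2. Their RNA is therefore read as a mark of proliferating cells.

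The stem-loop is the mark these genes share in RNA, so its variants are shown first. In the GENCODE vM21 transcripts, 40 of the 55 genes had at least 16 bases annotated after the stop codon, and 34 held a perfect 6-base stem (capitals) around a 4-base loop (lower case) that began with GG in the stem and tt in the loop. No match says only that these letters were not in the annotated stretch. The variants were:
Stem-loop of 18 genes of types H1, H2a, H2b and H3, Hist1h1c, Hist1h1d and Hist1h1e among them: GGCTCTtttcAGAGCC
Stem-loop of 6 genes, Hist1h1t, Hist1h2bb, Hist1h2bk, Hist1h3c, Hist1h3e and Hist1h3f: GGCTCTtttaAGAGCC
Stem-loop of 1 gene, Hist2h2ac: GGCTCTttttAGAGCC
Stem-loop of 5 H4 genes, Hist1h4c, Hist1h4d, Hist1h4f, Hist1h4h and Hist1h4m: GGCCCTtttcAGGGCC
Stem-loop of 2 H4 genes, Hist1h4i and Hist2h4: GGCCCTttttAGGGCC
Stem-loop of 2 H4 genes, Hist1h4b and Hist1h4j: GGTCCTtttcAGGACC
The stems of the H4 genes differed from those of all other types, and genes that share a stem but not a variant differ in the loop alone.

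Promoters are shown for the 4 genes that the results return to most, as the 250 bases before the start in RefSeq (GRCm38.p6). All 55 genes matched RefSeq and 50 had a promoter there. Capitals mark an octamer (ATTTGCAT), a CCAAT box (CCAAT) or a TATA box (TATAAA), each searched on both strands, so that a reversed match reads ATGCAAAT, ATTGG or TTTATA.
Hist1h2aa, chr13:23934187-23934436, plus strand: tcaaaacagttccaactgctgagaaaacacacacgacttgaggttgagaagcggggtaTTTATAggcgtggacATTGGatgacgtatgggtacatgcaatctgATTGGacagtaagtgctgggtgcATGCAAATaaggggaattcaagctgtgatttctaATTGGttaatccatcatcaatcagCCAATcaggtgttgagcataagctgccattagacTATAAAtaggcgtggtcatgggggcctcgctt
Hist1h1a, chr13:23763418-23763667, plus strand: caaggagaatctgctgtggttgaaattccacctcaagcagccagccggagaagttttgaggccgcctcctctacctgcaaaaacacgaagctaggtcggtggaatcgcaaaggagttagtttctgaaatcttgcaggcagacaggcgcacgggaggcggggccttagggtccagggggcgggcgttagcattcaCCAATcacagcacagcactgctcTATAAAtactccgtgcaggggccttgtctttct
Hist1h1e, chr13:23622559-23622808, minus strand: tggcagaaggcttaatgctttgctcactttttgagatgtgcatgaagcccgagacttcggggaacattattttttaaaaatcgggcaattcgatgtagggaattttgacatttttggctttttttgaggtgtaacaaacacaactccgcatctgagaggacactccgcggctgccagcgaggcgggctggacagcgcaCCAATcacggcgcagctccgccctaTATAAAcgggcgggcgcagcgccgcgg
Hist2h2bb, chr3:96269450-96269699, plus strand: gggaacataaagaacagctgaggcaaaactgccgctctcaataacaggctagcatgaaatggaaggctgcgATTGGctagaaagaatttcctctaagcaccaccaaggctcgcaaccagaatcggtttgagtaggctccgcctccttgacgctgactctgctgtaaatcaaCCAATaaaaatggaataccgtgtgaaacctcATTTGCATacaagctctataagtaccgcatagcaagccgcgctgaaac
The first of these is shared, since Hist1h2aa starts at 23934437 on the plus strand and Hist1h2ba at 23934156 on the minus strand, with 280 bases between them. The octamer stood in 13 of 50 promoters (26%), namely 6 of 13 H2a, 7 of 13 H2b and 0 of the H1, H3 and H4 promoters, against 1.81% of 27025 promoters of all genes. CCAAT stood in 43 (86%, against 37.5%) and TATAAA in 27 (54%, against 14.3%). Among H4 promoters CCAAT stood in 3 of 10, whereas every H1, H2a, H2b and H3 promoter with an entry held it. Neighbouring H2a and H2b genes that point away from each other share promoter sequence, so these counts are not independent. A match describes the letters and is not a site of binding.

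Libraries held 9344054 to 31216487 fragments counted over genes in the Dom line and 13211298 to 31107643 in the Cast line. Levels are given as RPM, fragments of a gene per 1000000 fragments counted in the library. The study describes days up to 7 as replicate time courses, and the labels do not say how far their cultures were separate, so p-values measure the spread between these samples. Replicates of the same clone and day were far apart in these genes: in 6 of 22 clone-days the summed RPM of the 55 genes differed over 2-fold, most in A3 at day 2 (616 and 192 RPM, 3.21-fold) and D5 in ES cells (233 and 689.9 RPM, 2.96-fold). The replicate with more histone RNA also had more RNA of 77 ribosomal protein genes, a list added after the values were seen, in 19 of 22 clone-days and in 6 of those 6. Ribosomal protein RNA differed less, 1.03-fold in A3 at day 2 and 1.23-fold in D5 ES cells. Mitosis, replication-independent histone and other-prefix histone genes also matched in 6 of those 6, DNA replication genes in 3 and histone chaperones in 1. The part of these genes in the results was not tested. Pluripotency genes (8 genes, Pou5f1 and Nanog among them) summed to 1366 to 2019 RPM in ES cells and 2.82 to 204 RPM from day 15 on. Neural precursor markers (8 genes) summed to 184 to 232 RPM in ES cells. From day 15 on they gave 193 to 1005 RPM, with Sox1 at 0 in every library. The lowest of these late values, in Cast WT at day 15, lay within the ES range. Fibroblast genes (7 genes, collagens among them) gave 7.64 to 20.5 RPM at days 2 and 3 and 243 to 16141 RPM from day 15 on. The mESCs had been grown on inactivated fibroblast feeders, from which they were separated by pre-plating before differentiation. The source of the late fibroblast RNA was not tested. From day 15 on neuronal markers (8 genes) summed to 150.3 to 1163 RPM, astrocyte markers (4 genes) to 0.877 to 27.1 RPM and mesendoderm markers (5 genes) to 17.7 to 219 RPM. In ES cells these lists gave 393 to 554, 7.37 to 9.95 and 8.51 to 23.2 RPM. In bulk samples fewer cells of a type and less RNA per cell cannot be told apart. Dom WT libraries also stood apart among themselves: past 140 Mb of chromosome 6 the Cast share was 48.7 to 50.5% in replicate 1 up to day 15 and 36.2 to 41.3% in replicate 2 and from day 21 on. Smchd1 RNA was present in the KO clones, with means of 514 to 551 RPM at days 2 and 3 against 539.6 and 600.2 RPM in WT, and so does not check the genotype labels.

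H1 and H2b genes gave most of the histone RNA. Over all replicates the H1 genes summed to a mean of 163 RPM (41.9% of the 55 genes), H2b to 114 RPM (29.4%), H4 to 59.6 RPM (15.3%), H3 to 38.9 RPM (10.0%) and H2a to 12.8 RPM (3.30%). Single genes led each type: Hist1h1a (50.4 RPM), Hist1h1d (39.4 RPM) and Hist1h1b (26.1 RPM) for the linker histones, Hist2h2bb (45.8 RPM), Hist1h2bg (9.36 RPM) and Hist1h2bb (9.21 RPM) for H2B, Hist1h4d (15.7 RPM), Hist1h4i (8.90 RPM) and Hist1h4f (8.83 RPM) for H4, and Hist1h3e (10.1 RPM), Hist1h3f (5.56 RPM) and Hist1h3a (4.60 RPM) for H3. H2a genes were lower, with Hist2h2ac (3.54 RPM), Hist1h2ab (1.81 RPM) and Hist2h2ab (1.55 RPM) on top. On a scale per length (FPKM, fragments per kilobase and per 1000000 fragments) the order was Hist2h2bb 92.7, Hist1h1a 67.6, Hist1h1d 50.7, Hist1h4d 42.6, Hist1h3e 21.5 and Hist2h2ac 7.55. Genes of a type are near-identical copies and only uniquely aligned reads were counted, so levels between copies, above all the low H2a values, are uncertain. The files count Hist1h2be over 37456 bases and Hist1h2bc over 8283 bases, so their values may hold RNA from beyond the histone gene.

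Histone RNA from day 21 on lay below all libraries of days 2 to 7 of the same clone, except in Cast WT at day 35. Summed over the 55 genes, the Dom WT replicates gave 535 and 375 RPM at day 2, 373 and 352 at day 3, 601 and 451 at day 5, 345 and 482 at day 7, 555 at day 15, 292 at day 21, 155 at day 35 and 162 at day 52. Clone A3 gave 746 and 796 RPM in ES cells, 616 and 192 at day 2, 554 and 502 at day 3, 296 and 450.2 at day 5, 472 and 295 at day 7, 552 at day 15, 128 at day 21, 107 at day 35 and 43.5 at day 52. In both clones of the Dom line day 15 lay among the values of days 2 to 7, and days 21 to 52 lay below all of them. Cast WT gave 352 and 467 RPM at day 2, 338, 418 and 498 at day 3, 318, 461 and 519 at day 5, 248, 543 and 365 at day 7, 358 at day 15, 87.6 at day 21 and 249.7 at day 35. D5 gave 233 and 689.9 RPM in ES cells, 333 and 690.3 at day 2, 305 and 657 at day 3, 506 and 592 at day 5, 413 and 635 at day 7, 331 at day 15, 244 at day 21 and 199 at day 35. G6 gave 190.1 RPM in ES cells, 278 and 737 at day 2, 293 and 382 at day 3, 387 and 302 at day 5, 400.5 and 419 at day 7, 153 at day 15, 131 at day 21 and 91.6 at day 35. In Cast WT the day 15 and day 35 libraries lay within its values of days 2 to 7, the latter just above the lowest of them, and day 21 lay below. The 3 late libraries of G6 lay below all its differentiating libraries of days 2 to 7, whereas in D5 the day 15 library lay among them. In A3 the day 15 library is labelled replicate 2 and those of days 21 to 52 replicate 1. In D5 and G6 day 15 is labelled replicate 1 and days 21 and 35 replicate 2. Dom WT day 15 went with replicate 1 by the chromosome 6 share, and its later days did not. In these clones a difference between day 15 and later days cannot be told apart from one between replicates.

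**Figure D1:**
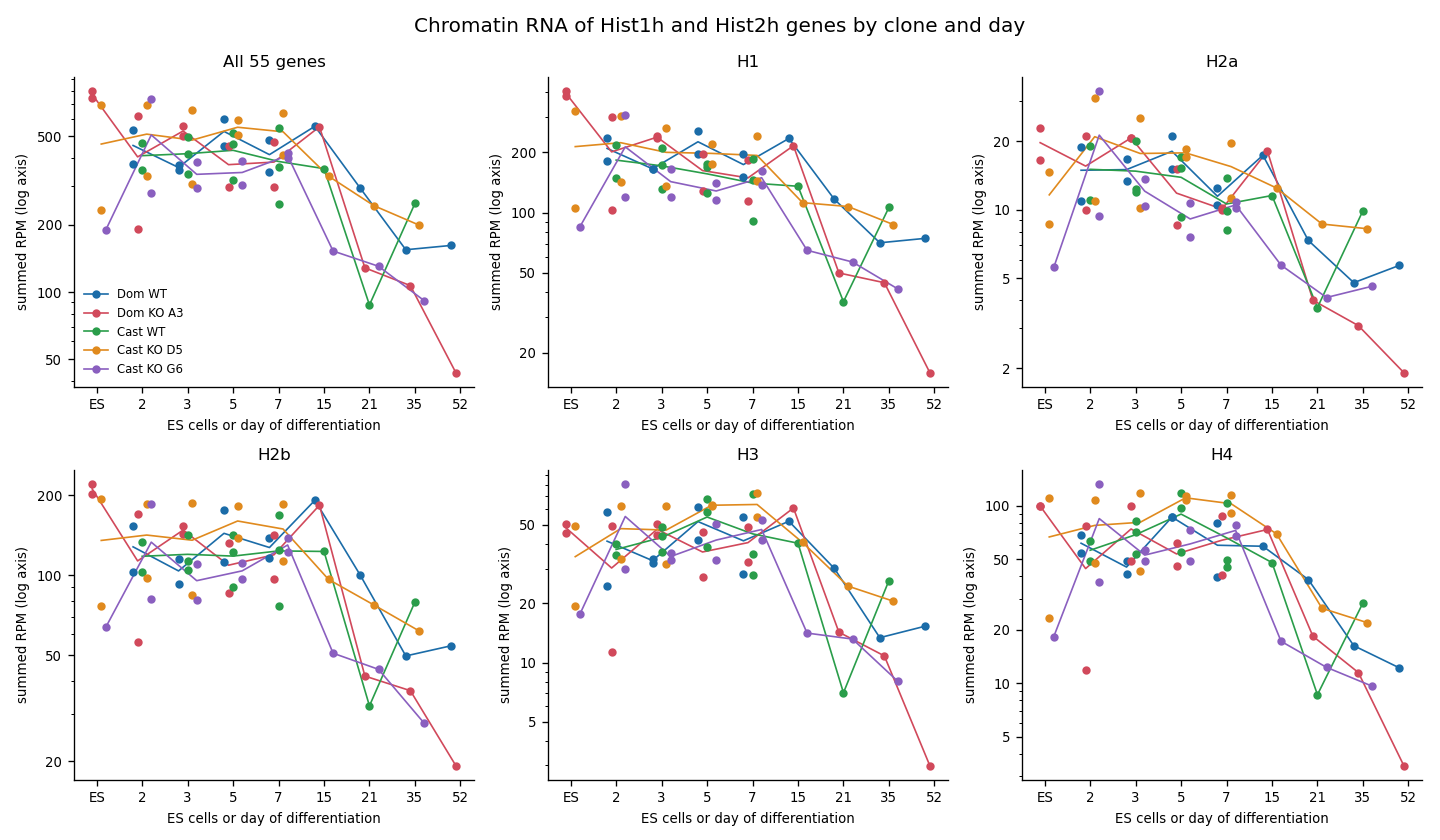
Summed RPM (log axis) of all 55 genes and of each histone type in ES cells and at each day of differentiation, with days evenly spaced; points are replicates, coloured by clone, and lines join clone means. Summed over all 55 genes, replicates of the same clone and day spread up to 3.21-fold, and the H4 panel spreads further, as in A3 at day 2 (76.7 and 11.8 RPM). The lowest sum of the 55 genes, 43.5 RPM, is A3 at day 52.

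Among the types, H4 genes had the largest late differences. In A3, H4 genes summed to 40.7 to 87.2 RPM at days 5 and 7 and 73.5, 18.4, 11.5 and 3.43 RPM at days 15, 21, 35 and 52. H2b genes gave 86.0 to 142 RPM and then 183, 41.8, 36.9 and 19.3 RPM. The day 15 library thus did not lie below days 5 and 7 for either type. ES cells of A3 gave 99.8 and 99.4 RPM for H4 and 202 and 219.7 RPM for H2b. In Cast WT the H4 sum was 45.1 to 118 RPM at days 5 and 7 and 47.8, 8.61 and 28.3 RPM at days 15, 21 and 35. The H1 sum of the same libraries was 90.9 to 185 RPM and then 135, 35.9 and 106 RPM, so that 2 of its 3 late libraries lay within the earlier values, against the day 15 library alone for H4. On the log2 scale, the mean of days 15 and later minus days 5 and 7 (log2 summed RPM) was lowest for H4 in every clone group. It was -1.43 in Dom WT, -1.89 in A3, -1.67 in Cast WT and -2.00 in D5 and G6. H3 came nearer, at -0.91, -1.53, -1.27 and -1.57, than H2b, at -0.65, -1.21, -0.78 and -1.26. Replicates of a clone and day had an SD of 0.73 for H4, 0.59 for H3 and 0.50 for H2b on this scale. The difference between types was not tested.

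ES cells were compared with days 2 and 3 to ask what changes at the start of differentiation, in KO clones only. In A3 the values were Hist1h1a 147 and 150.0 RPM in ES cells against 116, 45.7, 84.2 and 89.6 RPM, and Hist2h2bb 81.9 and 85.3 RPM against 70.3, 31.8, 55.7 and 65.4 RPM. ES cells lay above all 4 differentiating libraries for both genes, but neither passed the test (edgeR adjusted p = 0.354 and 0.554). Of the 55 genes, 2 were higher in ES cells and 0 lower, against 10.9% of all genes called higher, with a median log2 fold change of 0.55 against -0.01 for all genes. The pair was Hist1h2aa and Hist1h2ba, described below. In D5 and G6, 8 of 55 were lower in ES cells, a share close to the 14.8% of all genes called lower and so no result about the histone genes as a group. The median was -0.77 against -0.03, although D5 ES replicate 2 (689.9 RPM over the 55 genes) lay at the top of the D5 values of days 2 and 3 (305 to 690.3 RPM). The 8 genes were Hist2h2ac (-1.66, SE 0.46, adjusted p = 0.0076), Hist1h4b (-1.35), Hist2h4 (-1.32), Hist2h3b (-1.21), and, named after their values were seen, Hist1h3h (-1.17), Hist1h4f (-1.16), Hist2h2ab (-1.04) and Hist1h2bf (-1.04). For Hist2h2ac, an H2A gene, ES cells gave 1.93 and 2.35 RPM in D5 against 2.59 to 10.7 RPM at days 2 and 3, and 1.05 RPM in G6 against 2.27 to 9.21 RPM, with no overlap within either clone. The D5 and G6 count was 0 without the clone-days whose replicates were over 2-fold apart and 2 to 15 with single libraries left out: 2 without D5 ES replicate 1, D5 day 2 replicate 2 or G6 day 2 replicate 2, 3 without D5 day 3 replicate 2 or the G6 ES library, and 15 without D5 ES replicate 2. Whether A3 differs from D5 and G6 in ES cells was not tested.

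Days 5 and 7 were compared with days 2 and 3 to follow the exit from pluripotency. Few histone genes passed the test, while most genes of DNA replication fell in the Cast line. Medians over the 55 genes were 0.26 in Dom WT, -0.02 in A3, 0.21 in Cast WT and 0.21 in D5 and G6 on the log2 scale, against medians between -0.01 and 0.05 for all genes. H4 medians were 0.42, 0.10, 0.34 and 0.33, and H3 medians 0.31, 0.18, 0.36 and 0.36, while H1 medians were 0.10, -0.41, -0.21 and -0.17. Called lower were 1 of 55 in Dom WT (4.34% of all genes), 2 in A3 (8.58%), 2 in Cast WT (17.2%) and 3 in D5 and G6 (22.8%). Called higher were 0, 0, 0 and 3, against 22.5% of all genes in D5 and G6. The shares of these genes called lie below the background in D5 and G6, and in the other clone groups the counts are of 1 or 2 genes. With a replicate block within each clone, which treats same-numbered libraries as the same time course, 1 was higher and 1 lower in Dom WT, 0 and 4 in A3, 1 and 4 in Cast WT and 12 and 2 in D5 and G6, where the block also called more of all genes (9736 in either direction in D5 and G6).

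Hist1h1e and Hist1h2bb rose and Hist1h1a fell between these days in D5 and G6. Hist1h1e, which encodes linker histone H1.4, measured 16.1, 31.1, 17.9 and 32.6 RPM in D5 at days 2 and 3 and 37.1, 37.7, 35.0 and 54.4 RPM at days 5 and 7. In G6 it measured 14.2, 36.8, 16.3 and 21.1 RPM and then 26.2, 18.8, 32.6 and 36.6 RPM. The groups did not overlap in D5 and overlapped in G6. The fit gave a log2 fold change of 0.71 (SE 0.22, adjusted p = 0.0096) for Hist1h1e, 0.76 (SE 0.26, adjusted p = 0.016) for Hist1h2bb and 0.56 (SE 0.22, adjusted p = 0.038) for Hist1h2bc, and -0.76 (SE 0.26, adjusted p = 0.015) for Hist1h1a, which encodes H1.1. In Cast WT the values were 0.65 (adjusted p = 0.061) for Hist1h1e and -0.73 (adjusted p = 0.065) for Hist1h1a, in Dom WT 0.86 (adjusted p = 0.319) and -0.23 (adjusted p = 0.803), and in A3 0.35 (adjusted p = 0.678) and -0.64 (adjusted p = 0.364). With library totals in place of TMM, 0 genes were higher and 4 lower in D5 and G6, and without the clone-days over 2-fold apart neither direction had a call.

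The make-up of the H1 RNA is a ratio within a library, so a spread shared evenly by the H1 genes cancels in it. A spread that differs between these genes does not cancel. In A3 at day 2 the Hist1h1a share of H1 fragments was 38.8% at 616 RPM of summed histone RNA and 44.3% at 192 RPM. In Dom WT at day 5 the order was the reverse, with 34.5% at 601 RPM and 26.8% at 451 RPM. The H1 make-up was chosen after the values were seen and is given with no test. As a share of fragments over the 6 H1 genes, Hist1h1e was 7.32 to 10.4% in Dom WT at days 2 and 3 and 11.6 to 17.5% at days 5 and 7. The same ranges were 8.76 to 12.5% and 13.1 to 20.1% in A3, 8.97 to 13.8% and 16.3 to 21.0% in Cast WT, 10.2 to 13.2% and 17.2 to 24.4% in D5, and 11.9 to 13.7% and 16.3 to 23.8% in G6. In each of the 5 clones the periods did not overlap. From day 15 on the share was 15.1 to 20.1% in Dom WT and 13.7 to 20.3% in A3, mostly within the range of days 5 and 7. In Cast WT all 3 late libraries (22.2 to 24.9%) lay above that range, and in D5 (20.7 to 23.8%) and G6 (21.7 to 23.6%) they lay within it. ES cells gave 12.6 to 13.7% in A3, above its days 2 and 3, 13.3 to 13.5% in D5, also above, and 12.6% in G6, within them. Hist1h1a went the other way, from 35.9 to 40.9% to 26.4 to 34.5% in Dom WT, 34.9 to 44.3% to 26.2 to 34.2% in A3, 30.8 to 37.9% to 16.7 to 27.7% in Cast WT and 33.1 to 43.7% to 14.3 to 26.6% in D5. In G6 its ranges overlapped (28.5 to 38.8% and 17.7 to 30.1%). Both promoters, printed above, hold a CCAAT box and a TATA box near the start, at 56 and 33 bases before it in Hist1h1a and at 52 and 27 in Hist1h1e.

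**Figure D2:**
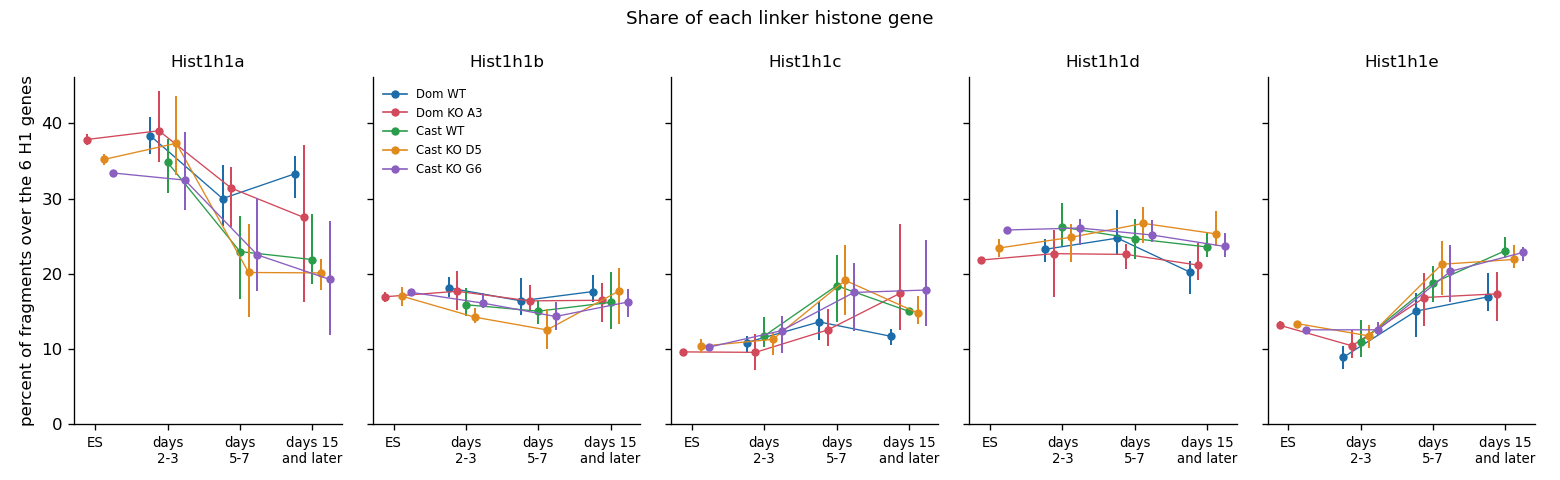
Share of each of 5 linker histone genes in the fragments over the 6 H1 genes (percent), by period; points are clone means and vertical lines run from the lowest to the highest replicate. Hist1h1e is higher at days 5 and 7 than at days 2 and 3 with no overlap in each of the 5 clones, and Hist1h1a is lower, with an overlap in G6.

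Testis-type histone genes carried both calls of A3 in ES cells and all calls of lower levels at days 5 and 7 but that of Hist1h1a. Hist1h2aa encodes TH2A and Hist1h2ba encodes TH2B, variants that replace H2A and H2B in sperm precursors, and they lie head to head over the promoter shown above. Hist1h1t encodes the testis linker histone H1t. In ES cells of A3, Hist1h2aa gave 5.24 and 6.12 RPM and Hist1h2ba 7.28 and 6.34 RPM. D5 ES cells gave 0.629 and 2.57 RPM for Hist1h2aa and 0.922 and 3.48 RPM for Hist1h2ba, and the G6 ES library gave 0.149 and 0.548 RPM, so the ES clones differed widely. At days 2 and 3 A3 gave 0.826, 0.248, 0.535 and 0.462 RPM for Hist1h2aa and 0.389 to 1.13 RPM for Hist1h2ba, all far below its ES cells. The fit for A3 gave log2 fold changes of 3.43 (SE 0.66, adjusted p = 0.0015) for Hist1h2aa and 3.21 (SE 0.79, adjusted p = 0.0076) for Hist1h2ba, ES cells over days 2 and 3.

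After day 3 Hist1h2aa was called lower in the 4 fits. It was counted with 43 fragments in the 4 Dom WT libraries of days 2 and 3 and 6 in those of days 5 and 7, a ratio of 7.60 per fragment sequenced (95% exact interval 3.22 to 21.8). The counts were 51 and 3 in A3 (ratio 19.4, 6.27 to 97.1), 32 and 4 in Cast WT (9.95, 3.53 to 38.7) and 34 and 6 in D5 (6.62, 2.75 to 19.3). G6 had 12 fragments and then 0 in 4 libraries, so the earlier level was 5.21-fold a floor of 3 fragments over the later group. That value leaves out the counting error of the 12 fragments. The intervals cover counting error only. For Hist1h2ba the counts were 55 and 53 in Dom WT (1.10, 0.740 to 1.64), 71 and 37 in A3 (2.19, 1.45 to 3.35), 71 and 96 in Cast WT (0.920, 0.667 to 1.26), 73 and 138 in D5 (0.618, 0.459 to 0.827) and 57 and 94 in G6 (0.791, 0.559 to 1.11). The fitted log2 fold changes of Hist1h2aa were -2.82 (SE 0.72, adjusted p = 0.015) in Dom WT, -3.91 (SE 0.78, adjusted p = 0.0016) in A3, -2.92 (SE 0.72, adjusted p = 0.0030) in Cast WT and -3.63 (SE 0.69, adjusted p = 0.00015) in D5 and G6, and rest on these few fragments. Hist1h2ba passed in 0 of the 4 fits, and the difference between the pair was not tested.

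Hist1h1t fell at the same step in the fits of A3, Cast WT, and D5 and G6. Cast WT replicates gave 0.944, 0.884, 0.324, 0.232 and 0.631 RPM at days 2 and 3 and 0 to 0.220 RPM at days 5 and 7, with no overlap (log2 fold change -2.18, SE 0.51, adjusted p = 0.0015). A3 gave 0.758 to 1.74 RPM and then 0.128 to 0.352 RPM (-1.90, SE 0.59, adjusted p = 0.024), and D5 and G6 together changed by -1.70 (SE 0.39, adjusted p = 0.00076). In Dom WT the ranges were 0.506 to 1.14 RPM and 0 to 0.518 RPM, and the gene was not called there.

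**Figure D3:**
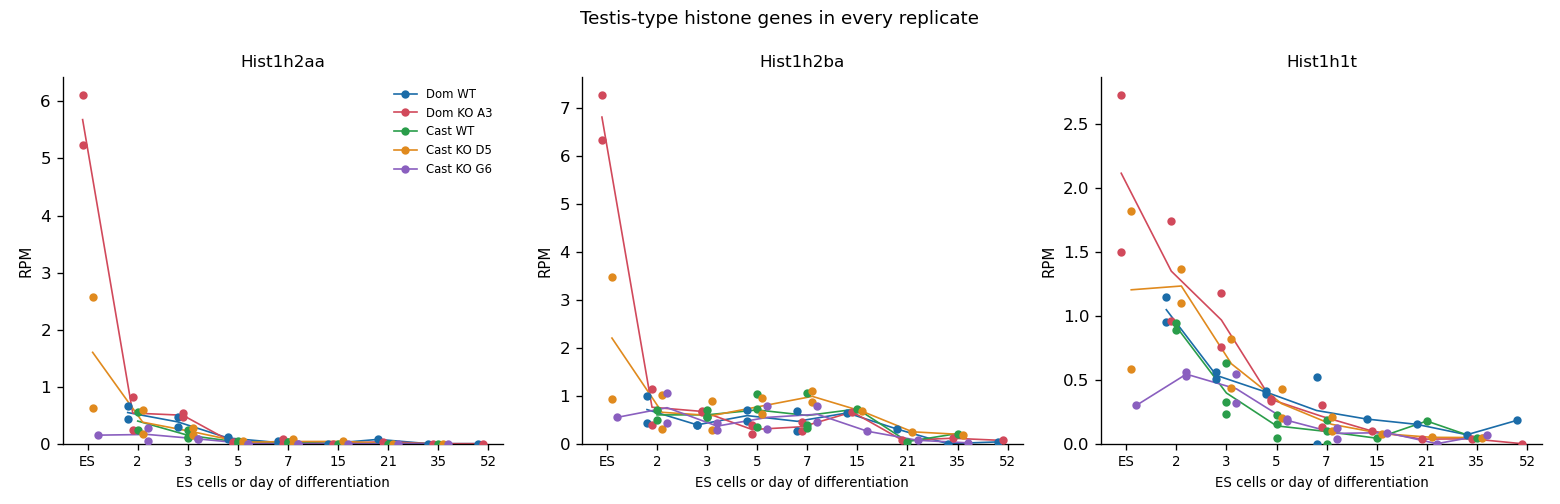
RPM of Hist1h2aa, Hist1h2ba and Hist1h1t in every replicate, in ES cells and by day (days evenly spaced); points are replicates and lines join clone means. Hist1h2aa and Hist1h2ba are highest in the ES cells of A3, at 5.24 to 7.28 RPM, and from day 5 on Hist1h2aa is near 0 while Hist1h2ba is still counted.

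Days 15 and later were compared with days 5 and 7 to ask what becomes of these genes in the NPC stage, and D5 and G6 carried most of the calls. Their contrast averages 2 clones, each with 4 libraries of days 5 and 7 and 3 late libraries. Dom WT and A3 had 4 and 4 each, and Cast WT had 6 and 3, so numbers of calls do not compare the clone groups. In D5 and G6, 43 of 55 genes fell and 0 rose, against 26.9% of all genes called lower, with a median of -1.24 against -0.03. By type the genes called lower were 6 of 6 H1, 5 of 13 H2a, 13 of 15 H2b, 8 of 10 H3 and 11 of 11 H4, with medians of -0.97, -0.64, -1.26, -1.11 and -1.48. Hist1h4i, an H4 gene, gave 13.2 to 21.2 RPM at days 5 and 7 and 8.82, 2.32 and 2.00 RPM later in D5, and 6.07 to 11.1 RPM and then 1.99, 1.44 and 0.942 RPM in G6. No late library reached a library of days 5 and 7 of its own clone (log2 fold change -2.02, SE 0.39, adjusted p = 6.8e-05). Hist1h4a (-1.99), Hist1h4m (-1.88) and the H3 gene Hist1h3e (-1.84) followed. Outside the named set, and chosen after the values were seen, Hist2h2ab and Hist2h2be gave values above 0 (0.29 and 0.10, not called).

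In Cast WT 10 of 55 fell, against 12.5% of all genes, and 0 rose. The largest changes were Hist1h2af (-2.32, SE 0.72, adjusted p = 0.015), Hist1h4a (-1.57, SE 0.51, adjusted p = 0.019), Hist1h4i (-1.53, SE 0.51, adjusted p = 0.024) and Hist2h3b (-1.51, SE 0.39, adjusted p = 0.0040). Of the 11 H4 genes 5 fell, with a median of -1.23. For Hist2h3b, the libraries gave 0.900 to 2.15 RPM at days 5 and 7 and 0.682, 0.177 and 0.507 RPM at days 15, 21 and 35, with no overlap. The count of 10 rests on single libraries: it was 29 without the day 15 library, 0 without day 21 and 4 without day 35. In A3, 1 of 55 fell, against 15.3% of all genes: Hist1h1t (-2.29, SE 0.76, adjusted p = 0.025), down to 0 to 0.0992 RPM. The A3 median was -0.56. Its count was 40 without the A3 day 15 library, which at 552 RPM over the 55 genes lay among the early libraries, and 0 without either day 5 replicate or day 52. In Dom WT 0 of 55 were called by edgeR (3 at an unadjusted p below 0.05, and 0 by DESeq2), against 7.36% of all genes, with a median of -0.51 and 52 of 55 values below 0. Without the day 15 libraries of both genotypes 15 were called in Dom WT, 45 in A3 and 31 in Cast WT. Over all genes 2625, 5589 and 7140 were then called in either direction, against 3422, 5825 and 5353 with day 15. In A3 the day 15 library has another replicate number than the later ones. In Dom WT it differs from the later ones in the chromosome 6 share. TMM scaling set the all-gene medians near 0. With library totals the median of all genes moved to between -0.19 and -0.30 for these contrasts, and the medians above stand relative to it.

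**Figure D4:**
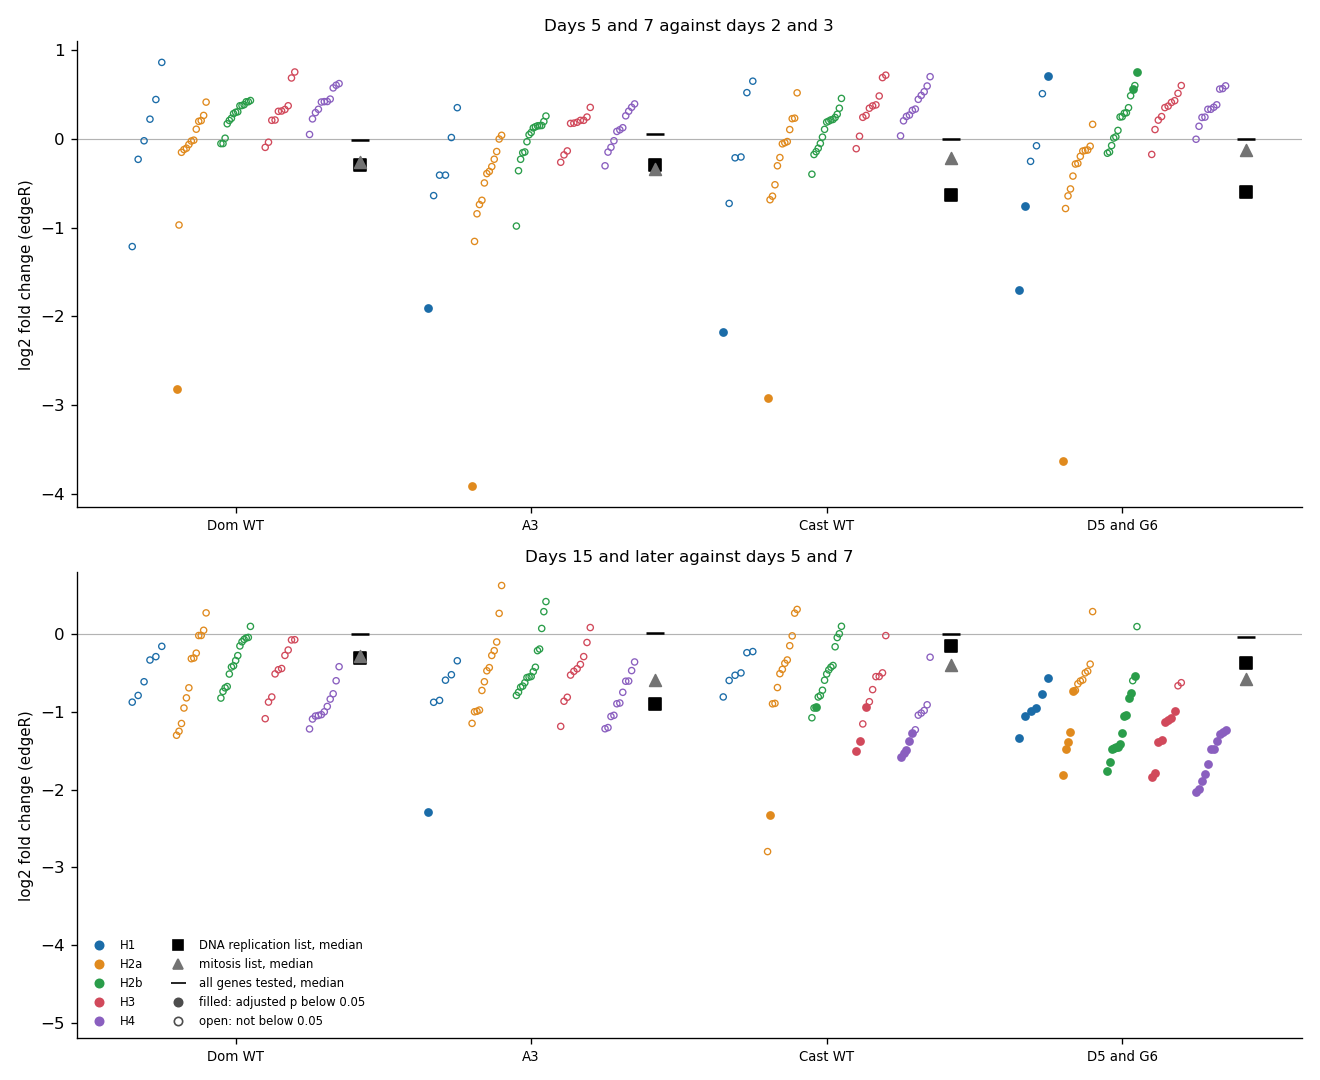
Log2 fold changes (edgeR) of the histone genes by type in 4 clone groups, for days 5 and 7 against days 2 and 3 (top) and days 15 and later against days 5 and 7 (bottom); circles are genes, filled where the adjusted p is below 0.05, with the medians of the DNA replication and mitosis lists and of all genes tested at the right of each group. In the lower panel of D5 and G6, 43 of 55 circles are filled, all below 0, and the H4 median is -1.48.

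The other genes of the pathway were read beside the histone genes, from lists given with their counts. Between days 2 and 3 and days 5 and 7 the 35 genes of DNA replication (Pcna and the Mcm helicase among them) had medians of -0.30 in Dom WT, -0.30 in A3, -0.63 in Cast WT and -0.59 in D5 and G6, below 0 in each group, while the histone medians were -0.02 to 0.26. Called lower were 1, 1, 24 and 27 of these 35, against 4.34, 8.58, 17.2 and 22.8% of all genes. Over all genes 1986, 3937, 6127 and 8091 were called in either direction, of 17113 tested in the Dom line and 17869 in the Cast line. In D5 and G6 22.5% of all genes were called higher. Pcna, the replication clamp, changed by -0.63 in Cast WT and -0.62 in D5 and G6, both called, and by -0.19 and -0.34 in Dom WT and A3, not called. Of 22 mitosis genes 0, 2, 4 and 6 fell, and of 11 histone chaperones 1, 1, 7 and 6 fell. The mitosis counts lie near the shares of all genes called lower. Npat, named for its role after its values were seen, rose by 0.33 (adjusted p = 0.0056) in D5 and G6 and gave 0.27 (adjusted p = 0.073) in Cast WT. Replication-independent histone genes, which need no S phase, went in both directions: of 11, 0, 2, 4 and 5 rose and 0, 0, 2 and 3 fell. Among those that rose was H1f0, the linker histone of resting and differentiated cells (1.29 in Cast WT, adjusted p = 0.0036; 1.41 in D5 and G6, adjusted p = 0.00011).

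From days 5 and 7 to days 15 and later the order was different. Of the 35 DNA replication genes 1 fell in Dom WT, 28 in A3, 2 in Cast WT and 16 in D5 and G6, and of the 22 mitosis genes 1, 13, 8 and 17 fell. Of all genes 7.36, 15.3, 12.5 and 26.9% were called lower. In either direction 3422, 5825, 5353 and 9591 of all genes were called. In Cast WT the DNA replication median was -0.15 and the histone median -0.68, whereas in A3 they were -0.89 and -0.56. Slbp, named for its role after its values were seen, fell by 0.90 in A3 (adjusted p = 0.0015), 0.76 in Cast WT (adjusted p = 0.00093) and 0.69 in D5 and G6 (adjusted p = 3.8e-05) on the log2 scale and gave -0.31 (adjusted p = 0.223) in Dom WT. Of 11 genes of histone gene transcription and 3' processing 1, 6, 4 and 7 fell. Of the 4 histone genes of other prefixes 0, 0, 1 and 4 fell, Hist3h2a by 1.11 in Cast WT and 1.55 in D5 and G6 and Hist3h2ba by 2.50 in D5 and G6. Ribosomal protein genes fell too, 10, 34, 13 and 68 of the 73 tested, and fibroblast genes rose, 6, 5, 7 and 6 of 7. Their part in the fall of the histone genes was not tested.

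KO and WT were compared at days 2 to 7, and again from day 15 on, to ask whether loss of SmcHD1 goes with a change in proliferation as read by these genes. At days 2 to 7 no histone gene differed between the genotypes by the test. Hist1h1a gave 48.8 to 92.2 RPM in Dom WT and 35.7 to 116 RPM in A3, and 20.5 to 80.8 RPM in Cast WT against 20.5 to 113 RPM in D5 and 24.2 to 97.7 RPM in G6, with wide overlap. Its log2 fold change KO over WT was -0.01 (SE 0.16) in the Dom line and 0.05 (SE 0.15) in the Cast line. Hist2h2bb gave 0.06 (SE 0.16) and 0.03 (SE 0.15), Hist1h4d -0.02 (SE 0.34) and 0.14 (SE 0.19), and Hist1h3e -0.14 (SE 0.32) and 0.09 (SE 0.19). By edgeR 0 of 55 genes were called in the Dom line, against 0.803% of all genes, and 0 of 54 tested in the Cast line, against 0.377%. None had an unadjusted p below 0.05, and DESeq2 called 0 in both lines. All values lay between -0.39 and 0.34, with medians of -0.08 and 0.13. The Cast value averages over 2 clones: against Cast WT the median was 0.28 for D5 alone and -0.02 for G6 alone. In these fits 5 and 1 histone genes had an unadjusted p below 0.05 by edgeR, and 0 were called. Over all genes 1285 and 273 were called. Whether D5 and G6 differ at days 2 to 7 was not tested.

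At days 15 and later, where each genotype has 1 library a clone and day, the Dom values leaned to lower levels in A3. The H1 sum was 235, 117, 70.7 and 74.4 RPM in Dom WT at days 15, 21, 35 and 52 and 216, 49.95, 44.7 and 15.9 RPM in A3, lower in A3 on each of the 4 days. For Hist1h1a the libraries gave 70.5, 40.9, 25.2 and 24.2 RPM in Dom WT and 54.8, 15.6, 16.6 and 2.59 RPM in A3, a log2 fold change of -1.21 (SE 0.46, adjusted p = 0.451). By edgeR 0 of 45 tested were called, and 0% of all genes were called. 7 had an unadjusted p below 0.05, namely Hist1h1a, Hist1h1b, Hist1h1d, Hist1h1e, Hist1h2bb, Hist2h2bb and Hist1h3d, and DESeq2 called 0 (10 unadjusted). The median was -0.67 against -0.00 for all genes, with 43 of 45 below 0. It was -1.02 without the day 15 library of either genotype, and without both (21 unadjusted, 0 called), and -0.37 and -0.40 without the day 52 library of Dom WT or A3. Type medians were -0.88 for H1, -0.68 for H2a, -0.80 for H2b, -0.63 for H3 and -0.51 for H4. The DNA replication list (35 of 35 below 0, median -0.74), the mitosis list (22 of 22, median -0.68), the ribosomal protein genes (69 of 70, median -0.52) and the pluripotency genes (8 of 8, median -1.49) lay below 0 in the same comparison, none of them with a call, and their part was not tested. Neuronal markers summed to 1163 RPM in A3 and 490 RPM in Dom WT at day 52. At days 15, 21 and 35 A3 lay below Dom WT (720, 229 and 188 against 974, 231 and 260 RPM). The part of these markers was not tested. The single fit over all Dom libraries called 6 of 55 histone genes lower, and 1433 of all genes in either direction.

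In the Cast line at days 15 and later the clones leaned to opposite sides, with a median of 0.30 over the histone genes for D5 alone and -0.65 for G6 alone, so that the joint median near 0 is an average over both. Whether the clones differ was not tested. Hist1h1a gave 37.8, 6.89 and 19.7 RPM in Cast WT at days 15, 21 and 35, 24.7, 19.2 and 17.9 RPM in D5 and 17.5, 10.7 and 4.94 RPM in G6, so WT was highest at day 15 and 35 and lowest at day 21 (log2 fold change -0.23, SE 0.45). 0 of 47 tested were called by edgeR, 0% of all genes were called, 0 had an unadjusted p below 0.05, and DESeq2 called 0 (1 unadjusted). The median was -0.13, between -0.92 and 0.30. The joint median changed sign without single libraries, from -0.52 without Cast WT day 21 to 0.16 without Cast WT day 35.

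**Figure D5:**
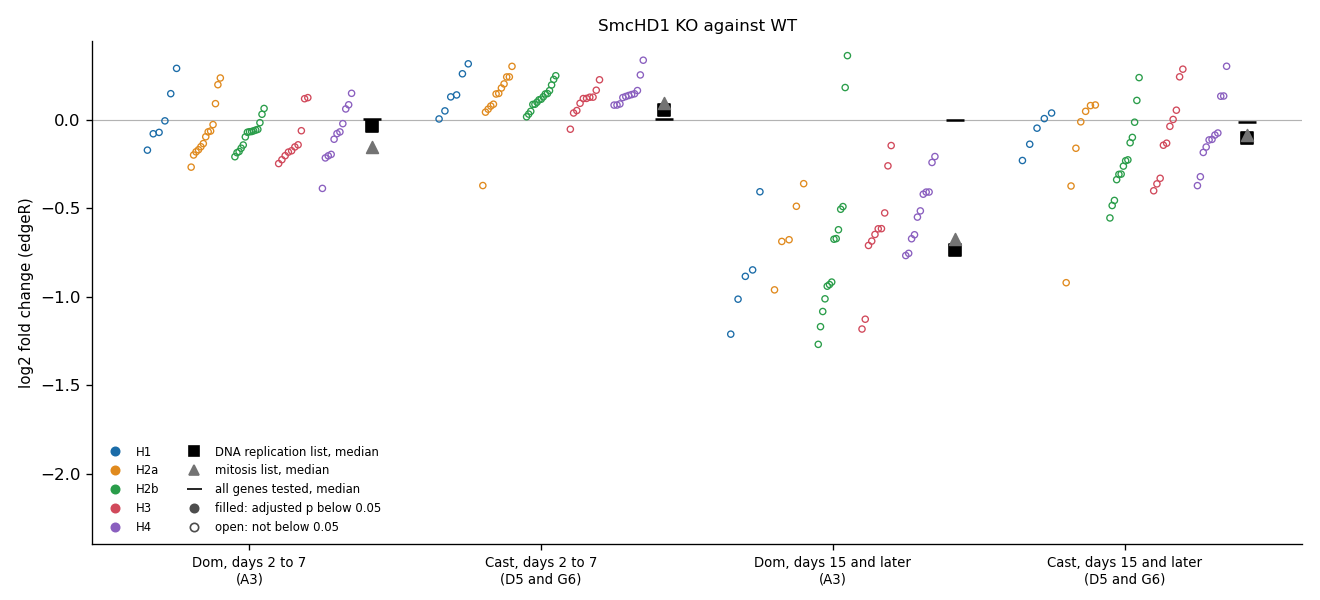
Log2 fold changes (edgeR), SmcHD1 KO over WT, of the histone genes tested in each line and period, coloured by type, with the medians of the DNA replication list, the mitosis list and all genes tested at the right of each group. All circles are open (adjusted p not below 0.05), and at days 15 and later in the Dom line 43 of 45 lie below 0.

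The differences between these effects were tested directly. KO minus WT changed from days 2 to 7 to the late days in 0 of 55 genes in the Dom line (0% of all genes called, median of the histone genes -0.21) and in 0 of 55 in the Cast line (0.207% of all genes, median -0.47). These medians rest on single libraries: the Dom value ran from -1.40 without A3 day 15 to 0.37 without Dom WT day 15, turning positive also without A3 day 35 (0.08) or day 52 (0.14), and the Cast value from -0.78 without Cast WT day 21 to 0.01 without Cast WT day 15. Without the day 15 libraries of both genotypes the Dom median was -0.90, with 13 genes at an unadjusted p below 0.05 and 0 called. Between the lines, KO minus WT differed in 0 of 55 genes at days 2 to 7 (0.288% of all genes, median -0.21) and in 0 of 51 tested late (0% of all genes, median -0.52). At an unadjusted p below 0.05 these counts were 0, 1, 0 and 0. Among the other lists the genotypes differed at days 2 to 7 in a few genes: Ccnd2, a D-type cyclin of G1, was higher in KO cells of both lines (log2 fold change 0.61, adjusted p = 0.019, and 0.98, adjusted p = 0.024). In the Dom line Cdkn1b, which encodes the CDK inhibitor p27, was lower (-0.62, adjusted p = 0.022), as were Pax6 (-1.15, adjusted p = 0.033) and Zfp42 (-1.05, adjusted p = 0.030).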

How the data were processed

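ChrRNA-seq was analysed for 72 libraries. The libraries labelled R1 and R2 of a replicate (7 replicates) were added together, which left 65 replicates. The authors removed rRNA reads with Bowtie2 2.3.2, aligned with STAR 2.4.2a to an mm10 genome masked at 129S and Cast variants, kept unique hits and counted fragments over genes by strand with featureCounts 1.5.2. The deposited values are raw counts, and the total and allele counts were used. The allelic ratio tables were not used. Unique alignment lowers counts of near-identical histone copies.

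Counts were tested with edgeR 4.0.16 in R 4.3.3 (quasi-likelihood test, TMM factors, genes kept by filterByExpr), with Benjamini-Hochberg adjustment over all genes tested and a threshold of 0.05. KO was compared with WT within a line and period with day as a factor. Periods were compared in a fit of all libraries of a line with 1 coefficient per clone and period, D5 and G6 averaged. SEs are the log2 fold change over the root of F. Alternatives were DESeq2 1.42.0, library totals, no filter, R1 and R2 apart, each clone alone, a single fit of the line, a replicate block and leaving out each library. The code was tested on simulated counts. Intervals are exact 95% conditional intervals and the floor is 3 fragments.

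The genes and lists were chosen with earlier results of these data known. The genes named are the 3 most abundant of each type, up to 4 called genes a direction for contrasts of periods, up to 10 for other contrasts, and of each list the 2 most abundant and those called between genotypes. H1f0, Hist3h2a, Hist3h2ba, Npat, Pcna and Slbp were named for their roles after their values were seen. Replicate numbers were checked as pairs: deviations of same-numbered replicates of Dom WT and A3 correlated at -0.72 to -0.39 and those of Cast WT and D5 at -0.56 to 0.66, so the numbers were not taken to pair WT and KO samples. Those of D5 and G6 correlated at 0.38 to 0.77, and across days 10 to 12 of 12 correlations in each clone were over 0.1. As the study ran replicate time courses, blocked counts are given beside the contrast of days 2 and 3 with days 5 and 7.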

Additional observations from a re-analysis of the deposited data

How the results depend on the processing

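KO against WT gave 0 called histone genes in both lines and both periods under every alternative run except the single fit of the Dom line. That fit called 6 histone genes at days 15 and later, and 1433 genes over all genes. Over all genes DESeq2 called 559 in the Dom line and 241 in the Cast line at days 2 to 7, and 184 and 443 later, where edgeR called 124, 59, 0 and 0. All tests of a difference between periods or lines also gave 0 calls under the alternatives run. With a replicate block, which treats same-numbered replicates as paired, the KO against WT counts at days 2 to 7 stayed at 0 in both lines, as they did with the numbers of A3 crossed (131 and 545 genes called over all genes with the block and with the crossed block). The block moved the counts for days 5 and 7 against days 2 and 3 from 1 to 2 in Dom WT, 2 to 4 in A3, 2 to 5 in Cast WT and 6 to 14 in D5 and G6. Other alternatives that moved counts by over 1.5 times were library totals (A3 late, 2), R1 and R2 as separate replicates (D5 and G6: ES 3, days 5 and 7 13) and 2 settings chosen after seeing the data. Without the clone-days over 2-fold apart, the counts were 1 in A3, 1 in Cast WT and 0 in D5 and G6 for days 5 and 7, and 0 for ES cells of D5 and G6. Without day 15 they were 4 for ES cells of A3, 2 in Dom WT and 4 in Cast WT for days 5 and 7, and 15 in Dom WT, 45 in A3 and 31 in Cast WT late. Over all genes the late counts without day 15 were 2625 in Dom WT, 5589 in A3 and 7140 in Cast WT. The cause was not tested. Leaving out single libraries gave 0 to 0 for each KO against WT count, 1 to 2 for ES cells of A3 (1 without ES replicate 1), 2 to 15 for ES cells of D5 and G6, 0 to 1 for Dom WT at days 5 and 7 (0 without either day 7 replicate), 1 to 2 for A3 (1 without day 2 replicate 1 or day 7 replicate 2), 2 to 4 for Cast WT (4 without its day 21) and 5 to 11 for D5 and G6 (10 without Cast WT day 21 or G6 day 5 replicate 2, 11 without G6 day 2 replicate 2). For days 15 and later it gave 0 to 1 in Dom WT (1 without day 15, or without A3 day 15 or 52), 0 to 40 in A3, 0 to 29 in Cast WT and 39 to 46 in D5 and G6. No named value turned sign. Of the values of named genes under alternatives, 1044 kept their side of the threshold and 51 no longer passed it, most often Hist1h2bc at days 5 and 7 in D5 and G6. Depth limits the testis-type genes, which were counted with 0 to 6 fragments of Hist1h2aa a clone at days 5 and 7.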

Other observations

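Allele-assigned fragments give the split of counted fragments between the parental copies of a histone gene, which the comparisons above leave out. At least 500 such fragments over all libraries were counted for 26 of the 55 genes, all of them in the Hist1 cluster. Pooled within a clone, the share from the Cast allele lay between 24.1 and 83.4% over these genes. It was 81.4 to 83.4% for Hist1h2bj, an H2B gene, and 72.4 to 77.1% for Hist1h4c, an H4 gene, in the 5 clones. It was 24.1 to 27.4% for Hist1h4k, another H4 gene, and 28.6 to 31.9% for Hist1h3b, an H3 gene. The linker histone genes Hist1h1a (45.8 to 47.4%) and Hist1h1b (48.6 to 50.5%) lay near an even split. In all 5 clones 5 genes stayed below 40% and 6 above 60%. A gene's clones differed by a median of 3.58 percentage points, and at most by 12.7 points, in Hist1h3i (36.9 to 49.6%). The clones share their parental genomes and the same masked reference, and how alignment to near-identical copies bears on these shares was not tested.

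Hist1h2bc, which the files count over a transcript longer than the histone gene, made up 3.98 to 11.8% of H2b fragments in most libraries. Its share was 40.1% in A3 at day 52 and 18.6% at day 35, 16.8% in Cast WT at day 21 and 17.4% in G6 at day 35, libraries in which the sum of the 55 genes was 43.5, 107, 87.6 and 91.6 RPM.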
